A study of Homo sapiens with 2 samples.

Results

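Transcripts of the nuclear receptor family were examined in HepG2, a line from a human liver carcinoma, treated for 18 h either with the polyherbal preparation Padma 28 (labelled PADMA28) as ethanolic extract at 218 μg/ml or with 0.9% EtOH as solvent control. The members were 46 receptor genes taken by name, and every probe set named for them on the Affymetrix Human Genome U133 Plus 2.0 array was read out, 130 of 54675 probe sets in all. Both groups are 1 array from pooled cells of 3 cultures of a single line at a single dose and time, so neither a test nor a standard error can be given, and effects of the extract and of the culture pools cannot be told apart. Values are on the log2 scale of GCRMA, by which the authors corrected and normalized the arrays. Differences are given as Padma 28 minus EtOH on this scale.

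Nuclear receptors are transcription factors, most of which are switched by small lipophilic ligands such as steroids, thyroid hormone, retinoids, vitamin D, fatty acids, oxysterols and bile acids. Most bind DNA at a short half-site, alone, as homodimers or as heterodimers with a retinoid X receptor (RXR), and exchange co-repressors for co-activators when a ligand binds. In the liver they control bile acid, cholesterol, fatty acid, glucose and drug metabolism, and their activity is set by ligands and partners as well as by transcript level, which is the only one of these that an expression array reads.

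The brightest own probe set, one named for no other gene, stood for each receptor. A receptor was called above background from 2 log2 units over the most frequent value of the array, which gave limits of 4.25 for EtOH and 4.35 for Padma 28. Of the 46 receptors, 39 had a probe set of their own, 127 probe sets together. NR1D1 shared its 3 probe sets with THRA, and NR1H2, NR1H4, NR1I2, HNF4A, NR2F2 and NR0B1 had no probe set named for them in the annotation used here and are not analysed. Above background were 22 of the 39 (56.4%), against 52.4% of all 19775 genes with a probe set of their own.

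The receptors above background on both arrays were 21 in number. They were the thyroid hormone receptor THRB, the retinoic acid receptor RARA, the peroxisome proliferator-activated receptors PPARA, PPARD and PPARG, the liver X receptor NR1H3, the clock repressor NR1D2 and its counterpart RORA, HNF4G, RXRA and RXRB, the glucocorticoid receptor NR3C1, the estrogen-related receptor ESRRA, the orphans NR2C1, NR2C2, NR2F1, NR2F6, NR4A1, NR5A1 and NR6A1, and the co-repressor NR0B2. NR5A2, the liver receptor homolog, lay just inside the limit, at 4.01 with EtOH and 4.48 with Padma 28, and is above background on the Padma 28 array only. THRA lay just outside, at 4.15 and 4.27.

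The 17 receptors below background on both arrays were THRA, RARB, RARG, VDR, NR1I3, RORB, RXRG, ESR1, ESR2, NR3C2, PGR, ESRRB, ESRRG, NR2E1, NR2E3, NR4A2 and NR4A3. They include the vitamin D receptor, both estrogen receptors, the progesterone and mineralocorticoid receptors and the constitutive androstane receptor NR1I3. All of their 54 own probe sets were between 1.79 and 4.27, and 51 of them differed by less than 0.1 between the arrays. The same holds for 89.9% of the 32477 probe sets of the whole array that were below background on both arrays, so a difference near 0 in this range says nothing about a receptor's response.

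**Figure D1:**
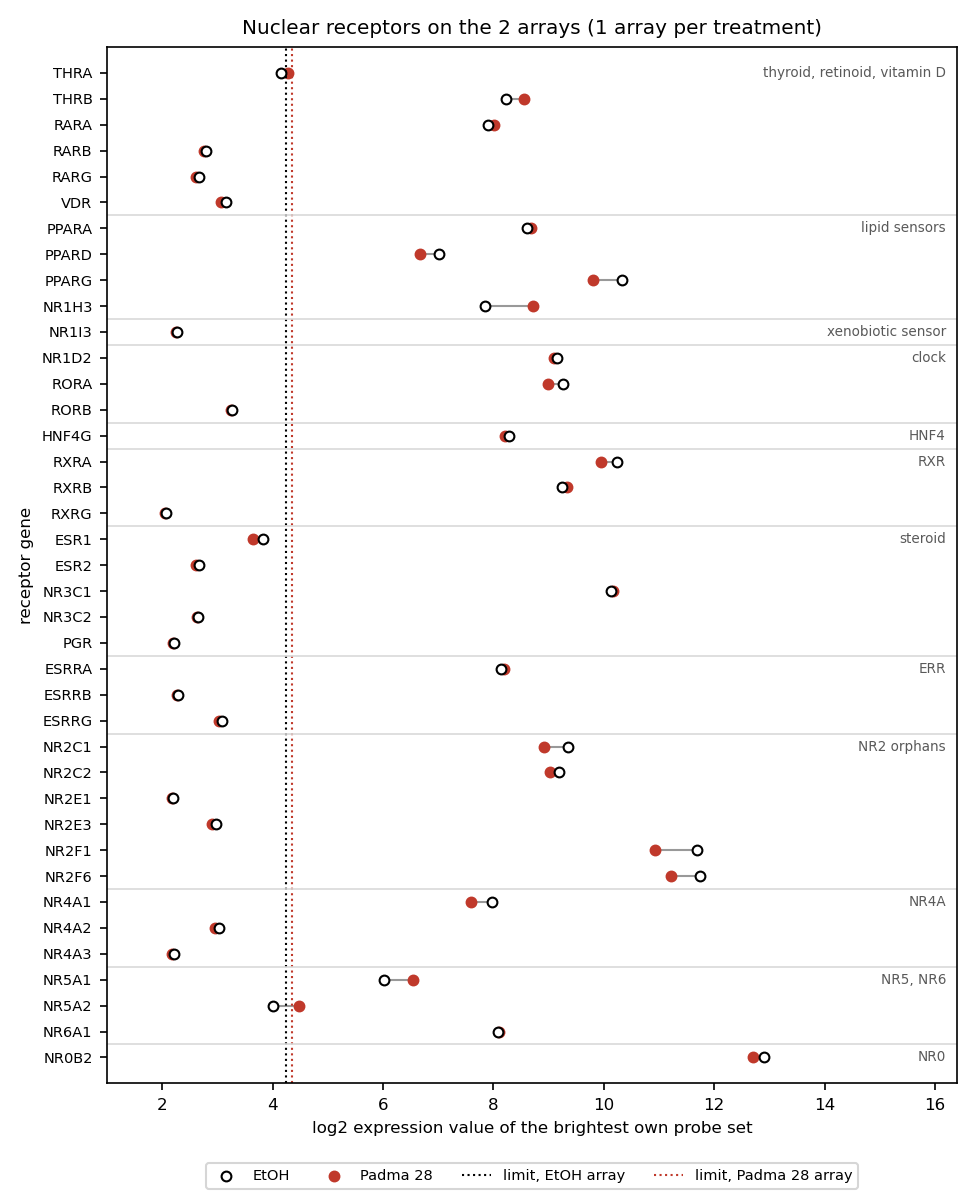
Log2 expression value (horizontal axis) of the brightest own probe set of each of the 39 nuclear receptors with one (vertical axis, grouped by role), with EtOH (open circles) and with Padma 28 (red circles), from 1 array per treatment. Dotted lines mark the background limits of 4.25 and 4.35; NR1H3 is the receptor farthest to the right of its EtOH value and NR2F1 the one farthest to the left.

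The cells had the transcripts of a hepatic line. All 8 hepatocyte and HepG2 markers, among them albumin, alpha-fetoprotein and transthyretin, were above background, between 13.28 and 16.62 with EtOH and between 12.84 and 16.52 with Padma 28, with a median log2 difference of -0.20. Of the markers of other cells, 1 of 5 fibroblast genes (COL1A1), 1 of 4 endothelial genes (PECAM1), 1 of 4 leukocyte genes (LYZ, with PTPRC and CD3E below) and 3 of 4 biliary genes (KRT19, SOX9, EPCAM) were above background, and none of these 6 differed by more than 0.32 by the brightest probe set, while a second probe set of LYZ was at -0.77. With EtOH, LYZ at 14.36 and EPCAM at 13.91 lay within the range of the hepatocyte markers. SOX9 was at 12.45, KRT19 at 10.23, COL1A1 at 6.74 and PECAM1 at 6.49. COL1A1 and PECAM1 were above background on their brightest probe set only, with the others at no more than 2.77 and 4.01 with EtOH. The brightest probe set of albumin (ALB) differed by -0.10, and the 3 dimmer ones by -1.07 to 0.27. In a bulk sample, fewer cells that use a gene and less RNA per cell cannot be told apart.

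In the deposited values, by the brightest own probe set, no receptor differed more than 2-fold between Padma 28 and EtOH. Of the 10361 genes above background, 1.57% were more than 2-fold higher and 0.705% more than 2-fold lower. Past 1.5-fold were NR1H3 as the higher and NR2F1 as the lower receptor, 1 of 22 in each direction, against 6.49% and 2.90% of all genes above background. Just under 1.5-fold lay NR2F6, PPARG and NR5A1. The 22 receptors were not shifted far as a group. Their median log2 difference was -0.06, with 10 above 0 and 12 below. Among the 10 is NR5A2, which was bound to count as higher, since it is above background with Padma 28 only. The median of all genes above background was 0.06, and 41.9% of these were below 0. Of the 21 receptors above background on both arrays, 3 were higher by more than 0.3 and 6 lower, beside 20.7% and 10.5% of all genes above background. NR5A2 is left out of this count, since its EtOH value is below background and against the limit it was higher by only 0.23. The median size of the difference, without its sign, was 0.27 for the 22 receptors, or 0.25 with NR5A2 at that bound, and 0.18 for all genes above background.

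**Figure D2:**
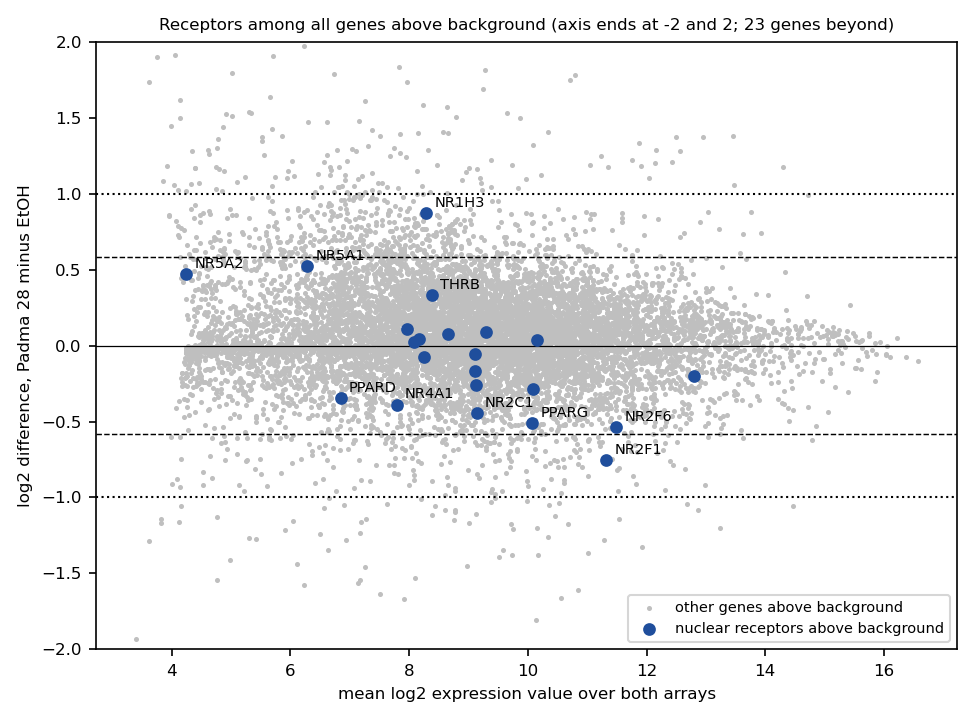
Log2 difference, Padma 28 minus EtOH (vertical axis), against the mean log2 expression value over both arrays (horizontal axis) for all genes above background (grey) and the 22 nuclear receptors above background (blue), from 1 array per treatment. Dashed lines mark 1.5-fold and dotted lines 2-fold, 23 genes lie beyond the axis, receptors that differ by more than 0.3 are named, and every receptor lies inside the 2-fold lines.

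NR1H3, the liver X receptor alpha, showed the largest difference in the family. It is switched by oxysterols and turns on genes of cholesterol efflux and of fatty acid synthesis. Its only probe set read 7.85 with EtOH and 8.72 with Padma 28, a log2 difference of 0.87 or 1.83-fold. No second probe set was named for NR1H3 against which this could be set. The paper lists NR1H3 among genes past its 2-fold cut-off, which the deposited value does not reach, for a reason not known here. Alternatives that change only the choice of probe set or the background limit cannot move the value of a gene with a single probe set. With a constant added, with centring or with repeated quantile normalization, the difference lay between 0.72 and 0.86.

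Known targets of the liver X receptors lay on both sides of 0. Of 14 measured targets 11 were above background, against 52.4% of all genes with a probe set of their own. Of the 11, 6 were above 0 and 5 below, beside 58.1% and 41.9% of all genes above background. Their median was 0.01, and none passed 1.5-fold by its brightest probe set. The 4 targets with the largest differences were all lower with Padma 28. The cholesterol exporter ABCA1 had a log2 difference of -0.44, the sterol regulator SREBF1 of -0.43, the desaturase SCD of -0.35 and the fatty acid synthase FASN of -0.34. A second probe set of ABCA1 went from 11.85 to 10.96, a difference of -0.89 or 1.85-fold lower.

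The promoter sequences of NR1H3, NR2F1 and PPARG are shown, since NR1H3 and NR2F1 had the largest differences in each direction and NR1H3 and PPARG carry the half-site of the family itself. Each is the 250 bases before the first start that RefSeq lists for the gene on GRCh38.p14, on the plus strand, and NR1H3 has 4 starts in that table, NR2F1 2 and PPARG 6. They lie at chr11:47248050-47248299, chr5:93582972-93583221 and chr3:12287118-12287367. Capitals mark the half-site AGGTCA, searched on both strands.
NR1H3: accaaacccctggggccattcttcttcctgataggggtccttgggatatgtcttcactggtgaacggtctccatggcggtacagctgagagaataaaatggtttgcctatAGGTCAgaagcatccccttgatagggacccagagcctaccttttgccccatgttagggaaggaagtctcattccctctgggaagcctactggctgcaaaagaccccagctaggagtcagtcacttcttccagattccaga
NR2F1: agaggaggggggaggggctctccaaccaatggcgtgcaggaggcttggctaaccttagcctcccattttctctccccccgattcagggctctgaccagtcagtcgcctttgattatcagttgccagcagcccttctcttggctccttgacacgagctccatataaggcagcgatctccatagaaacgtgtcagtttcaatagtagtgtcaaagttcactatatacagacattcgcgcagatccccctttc
PPARG: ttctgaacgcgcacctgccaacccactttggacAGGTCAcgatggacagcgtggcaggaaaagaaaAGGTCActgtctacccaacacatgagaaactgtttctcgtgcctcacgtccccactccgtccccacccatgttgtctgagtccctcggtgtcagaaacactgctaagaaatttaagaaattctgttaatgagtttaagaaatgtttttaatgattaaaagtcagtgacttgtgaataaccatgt

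The half-site begins 140 bases before the start in NR1H3 and 217 and 184 bases before it in PPARG, while the NR2F1 window holds none. Of the 19 receptors above background with a window in the table, 4 held AGGTCA (NR1H3, NR5A2, PPARG and RARA), and it was present in 12.1% of the 27305 windows of all genes. The core of the antioxidant response element, TGACNNNGC, was in the windows of another 4 (NR5A1, NR6A1, RORA and RXRA) and in 11.0% of all. It was in none of the 3 windows shown. The half-site read on the other strand, TGACCT, shares its first 4 letters with that core, but no window among these 8 held both. These are matches of letters in a short window and do not show that a factor binds there.

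The chicken ovalbumin upstream promoter family and related orphans, which mostly repress transcription and compete with other receptors for the same sites, lay on the lower side. NR2F1 was at 11.69 with EtOH and 10.94 with Padma 28 on its single probe set, 1.69-fold lower, and this was the lowest log2 difference in the family at -0.76. NR2F6 was at 11.75 and 11.22 on its brightest probe set, a difference of -0.53, and at 8.51 and 8.22 on the next, a difference of -0.29. Both probe sets thus pointed the same way, with different size.

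Of the testicular receptors, which bind direct repeats of the half-site, NR2C1 was at 9.36 with EtOH and 8.91 with Padma 28, a log2 difference of -0.44. Its dimmer probe sets disagreed, with differences of 0.17 and -0.25. NR2C2 was at 9.19 and 9.02, a difference of -0.17, and a dimmer probe set was at 0.24. All 4 NR2 orphans above background were below 0 by their brightest probe set, as were 41.9% of all genes above background. The median of the 4 was -0.49. NR2F6 lay below 0 on both probe sets above background, while NR2C1 and NR2C2 had probe sets on both sides.

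The 3 peroxisome proliferator-activated receptors bind fatty acids and their derivatives. PPARA, the driver of fatty acid oxidation in liver, had 8 probe sets above background, the brightest of which went from 8.61 to 8.69, a log2 difference of 0.08. The others ranged from -0.33 to 0.53, and 5 of the 8 lay above 0. PPARD was lower on both probe sets above background, from 7.02 to 6.67 and from 6.03 to 5.76, differences of -0.35 and -0.27. PPARG, best known from fat cells, went from 10.32 to 9.81 on its single probe set, a difference of -0.51 or 1.43-fold lower.

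Of the 11 targets of PPAR alpha above background 9 were above 0, as were 58.1% of all genes above background, and their median was 0.19 against 0.06. CPT1A, which carries fatty acids into mitochondria, was 1.69-fold higher by its brightest probe set, and its other 2 probe sets above background were at 0.72 and 0.89. The hepatic transcription factor CREB3L3 was 1.61-fold higher and the pantetheinase VNN1 had a log2 difference of 0.51. The fatty acid binding protein FABP1 was at -0.49, and at -0.75 on a second probe set. The other 7 lay between -0.0015 and 0.42.

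The retinoid X receptors are the common partners of thyroid, retinoid, vitamin D and lipid receptors. RXRA had 2 probe sets that differed in sign, from 10.23 to 9.95 on the brighter and from 8.68 to 9.05 on the other, log2 differences of -0.28 and 0.38. RXRB, at 9.24 and 9.33, differed by 0.09, and by -0.02 on a second probe set. RXRG was below background.

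Among the hormone and retinoid receptors that pair with RXR, THRB was higher on both probe sets above background, from 8.22 to 8.55 and from 7.84 to 8.18, log2 differences of 0.33 and 0.34. This was the closest agreement among the 15 receptors with several probe sets above background. Of 5 thyroid hormone targets above background 4 were below 0, against 41.9% of all genes above background. The protease FURIN was at -0.52 and the sex hormone binding globulin SHBG at 0.39. RARA went from 7.91 to 8.02, a difference of 0.11, with -0.21 and 0.01 on the other probe sets above background. Of 7 measured retinoic acid targets 1 was above background, against 52.4% of all genes with a probe set of their own. This was the retinal reductase DHRS3, at -0.39.

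VDR was below background on all 4 of its probe sets, at no more than 3.15. Of its 5 listed targets 2 were above background, against 52.4% of all genes with a probe set of their own. Each of the 2 had a single probe set, while CAMP, TRPV6 and THBD were below background. The vitamin D hydroxylase CYP24A1 went from 5.44 with EtOH to 8.51 with Padma 28, 8.40-fold higher. The lipopolysaccharide co-receptor CD14 went from 4.36, just over the EtOH limit of 4.25, to 6.75, 5.23-fold higher.

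NR1D1 could be read only on probe sets that are also named for THRA. Their annotated spans overlap on opposite strands of chromosome 17 (RefSeq, GRCh38.p14), and the 3 probe sets named for both cannot be assigned to either gene. The brightest of these went from 8.16 to 7.64 and the next from 4.79 to 4.23, log2 differences of -0.52 and -0.56. The second is above background with EtOH only. The 4 probe sets of THRA alone were below background, with differences between -0.15 and 0.12.

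The receptors of the circadian clock set the rhythm of BMAL1, RORA by activation and the NR1D proteins by repression. RORA was lower on all 5 probe sets above background, with log2 differences from -0.40 to -0.26, of which the brightest, at 9.26 with EtOH, had the smallest difference and the next went from 8.44 to 8.09. No other receptor had as many probe sets that all lay on 1 side of 0. NR1D2 went from 9.14 to 9.09 and from 8.84 to 8.76, differences of -0.06 and -0.08.

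Of 11 clock genes above background 10 were below 0, as were 41.9% of all genes above background, with a median of -0.28 against 0.06, and none passed 1.5-fold. The periods PER2 and PER3 were at -0.49 and -0.46, the output factor DBP at -0.44 and CLOCK at -0.40. BMAL1, named here after its value was seen, was the exception at 0.22.

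HNF4G went from 8.29 to 8.22, a log2 difference of -0.07. NR0B2, a receptor without a DNA-binding domain that represses bile acid synthesis, went from 12.89 to 12.70 on its single probe set, a difference of -0.20. NR5A2, which drives bile acid synthesis together with HNF4, was at least 1.18-fold higher with Padma 28 when set against the limit for background with EtOH, and its other 3 probe sets were below background. NR5A1, the steroidogenic factor of adrenal and gonads, went from 6.01 to 6.54, a difference of 0.52 or 1.44-fold, on its single probe set. NR6A1, a germ cell repressor, went from 8.08 to 8.10, and its 6 probe sets above background lay between -0.13 and 0.03.

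Of 13 HNF4 alpha targets above background 11 were below 0, against 41.9% of all genes above background, with a median of -0.14 and none past 1.5-fold by the brightest probe set. The lipoprotein loading protein MTTP was at -0.50, transthyretin TTR at -0.44, apolipoprotein APOB at -0.30 and angiotensinogen AGT at -0.17. Dimmer probe sets of 2 of the 13 were past 1.5-fold. The second of APOB went from 14.16 to 13.27, 1.84-fold lower, and those of transferrin (TF), at -0.17 on the brightest and named here after its values were seen, were at -1.23 and -0.96. Targets of the bile acid receptor FXR, encoded by NR1H4, lay on both sides of 0. Of 10 measured 8 were above background, against 52.4% of all genes with a probe set of their own. Of the 8, 4 were above 0 and 4 below, beside 58.1% and 41.9% of all genes above background, with a median of -0.14. SLC51B, a subunit of the bile acid exporter, went from 6.67 to 8.09, 2.68-fold higher, while the phospholipid exporter ABCB4 was 1.76-fold lower. The list also holds 2 genes that bile acids repress, so its count and median do not measure 1 direction. Both were lower: the cholesterol hydroxylase CYP7A1 went from 7.24 to 6.29, 1.94-fold lower, and the sterol hydroxylase CYP8B1 from 5.63 to 4.88, 1.69-fold lower. SLC51B, CYP7A1 and CYP8B1 each rest on a single probe set. SLC51A, the other subunit of the exporter, named here after its value was seen, was at 0.38.

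NR3C1, the glucocorticoid receptor, was the steroid receptor above background. All 5 of its probe sets were above background, the brightest going from 10.13 to 10.17, and their log2 differences ran from -0.29 to 0.04. Its 10 targets above background had a median of -0.09. The co-chaperone FKBP5 was 1.75-fold higher, with a second probe set above background on both arrays at 0.85, and the kinase SGK1 2.57-fold lower. CEBPD was at 0.45 and the phosphatase DUSP1 at -0.43, with -0.61 on a second probe set.

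ESRRA, a regulator of mitochondrial genes, went from 8.14 to 8.19, a log2 difference of 0.05, with -0.0021 on its second probe set. NR4A1, an early response gene, went from 7.98 to 7.60, a difference of -0.39, and the other probe set above background differed by -0.05. Both estrogen receptors were below background, with ESR1 at no more than 3.82. All 9 listed estrogen targets were above background, against 52.4% of all genes with a probe set of their own. Of the 9 targets, 6 were below 0, against 41.9% of all genes above background, and their median was -0.30. The scaffold PDZK1 was 2.00-fold lower on its single probe set and GREB1 1.55-fold lower, while IGFBP4 was at 0.48 and cyclin CCND1 at -0.44.

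Of the xenobiotic sensors only NR1I3 could be read, and its 2 probe sets were below background. Of 11 measured targets of PXR and CAR 4 were above background, against 52.4% of all genes with a probe set of their own. ALAS1, which starts heme synthesis, was 1.74-fold higher, the carboxylesterase CES2 was at 0.14, the sulfotransferase SULT2A1 at -0.17 and the export pump ABCB1 at 0.0033.

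**Figure D3:**
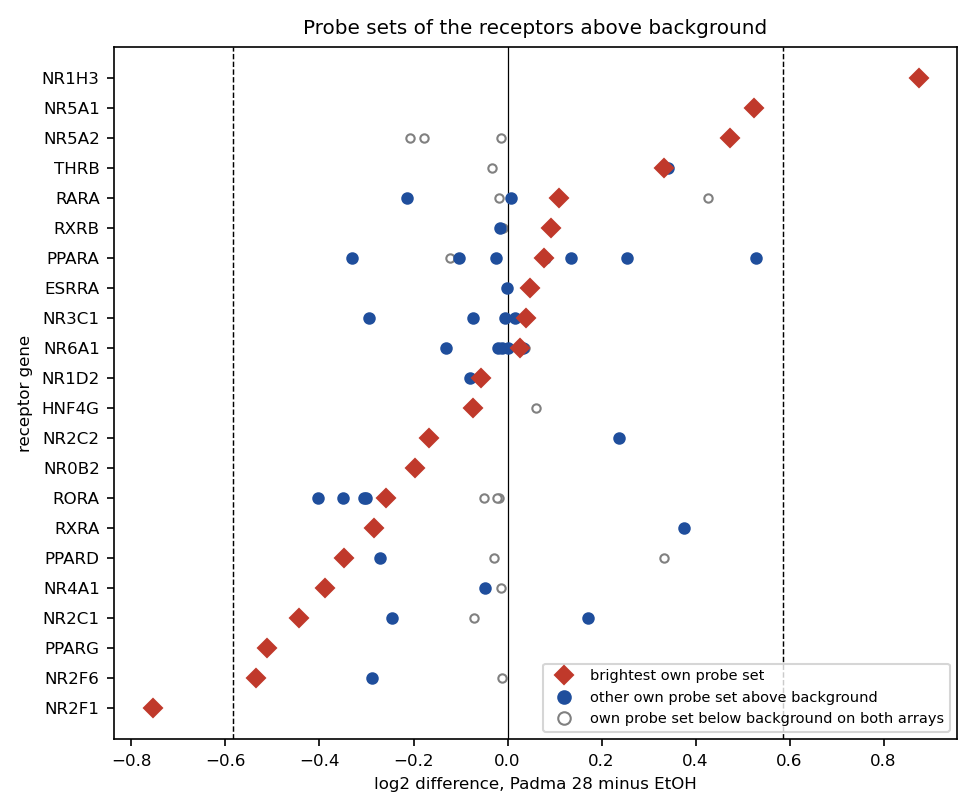
Log2 difference, Padma 28 minus EtOH (horizontal axis), of every own probe set of the 22 nuclear receptors above background (vertical axis), from the 2 arrays. Diamonds mark the brightest own probe set, filled circles are other probe sets above background and open circles those below it on both arrays, and dashed lines mark 1.5-fold; RXRA, NR2C2 and PPARA have filled symbols on both sides of 0, while those of RORA all lie below it.

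Repeated probe sets of a receptor show how far a value depends on the probes. Of the 22 receptors 7 had 1 probe set above background, among them NR1H3, NR2F1 and PPARG. Of the other 15, 6 had all probe sets above background on the same side of 0. These were THRB as higher and PPARD, NR1D2, RORA, NR2F6 and NR4A1 as lower. The gap between the lowest and the highest difference of these 15 receptors had a median of 0.25 and reached 0.86 for PPARA. Over the 4912 genes with at least 2 probe sets above background on both arrays, the 2 brightest differed by a median of 0.14. This takes only 2 probe sets per gene, whereas the gap of the receptors spans all above background, so the medians cannot be compared. Of all 55 own probe sets of receptors above background, 22 were above 0 and 33 below. The share over all probe sets of the array was not computed. Probe sets of 1 receptor are not independent, and PPARA gave 8 of the 55, NR6A1 6, RORA 5 and NR3C1 5. Counted by receptor, 10 were above 0 and 12 below.

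Co-regulators are recruited by receptors to open or close chromatin. Of 14 co-activators above background none passed 1.5-fold by its brightest probe set and the median was -0.01, with PELP1 at -0.47, NCOA1 at 0.40, the mediator subunit MED1 at 0.32 and the acetyltransferase EP300 at -0.29. Of 9 co-repressors 7 were below 0, against 41.9% of all genes above background, with a median of -0.11. Among them LCOR was at -0.41, NRIP1 at -0.30, SIN3A at -0.22 and the deacetylase HDAC2 at -0.21. Dimmer probe sets passed 1.5-fold in 3 of these co-regulators. The 4 probe sets of NCOA1 lay between 0.26 and 0.80. NCOA2, named here after its values were seen, was at -0.25 on the brightest and at -0.83 and -1.08 on the other probe sets above background, the last from 6.22 to 5.14 or 2.12-fold lower. HDAC2 had the opposite sign on its second probe set, which went from 5.70 to 6.46, 1.70-fold higher. Both probe sets of LCOR lay below 0, and those of MED1 ran from -0.0035 to 0.34.

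Enzymes that make or remove receptor ligands held larger differences than the receptors themselves in single genes. Of 12 above background 3 were more than 1.5-fold higher and 1 lower, against 6.49% and 2.90% of all genes above background. The median of the 12 was -0.01. Beside CYP24A1 and CYP7A1, the retinal dehydrogenase ALDH1A1, which makes retinoic acid, was 2.44-fold higher, and the steroid reductase SRD5A1 was 1.86-fold higher by its brightest probe set. For SRD5A1 another probe set was at -0.01 and another at 1.68. The ligand carriers FABP1 and TTR were below 0, at -0.49 and -0.44, with FABP5 at -0.08 and RBP4 at 0.05. Of 6 chaperones of steroid receptors FKBP5 passed 1.5-fold, while FKBP4 was at 0.26, HSP90AA1 at 0.16 and PTGES3 at 0.08.

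**Figure D4:**
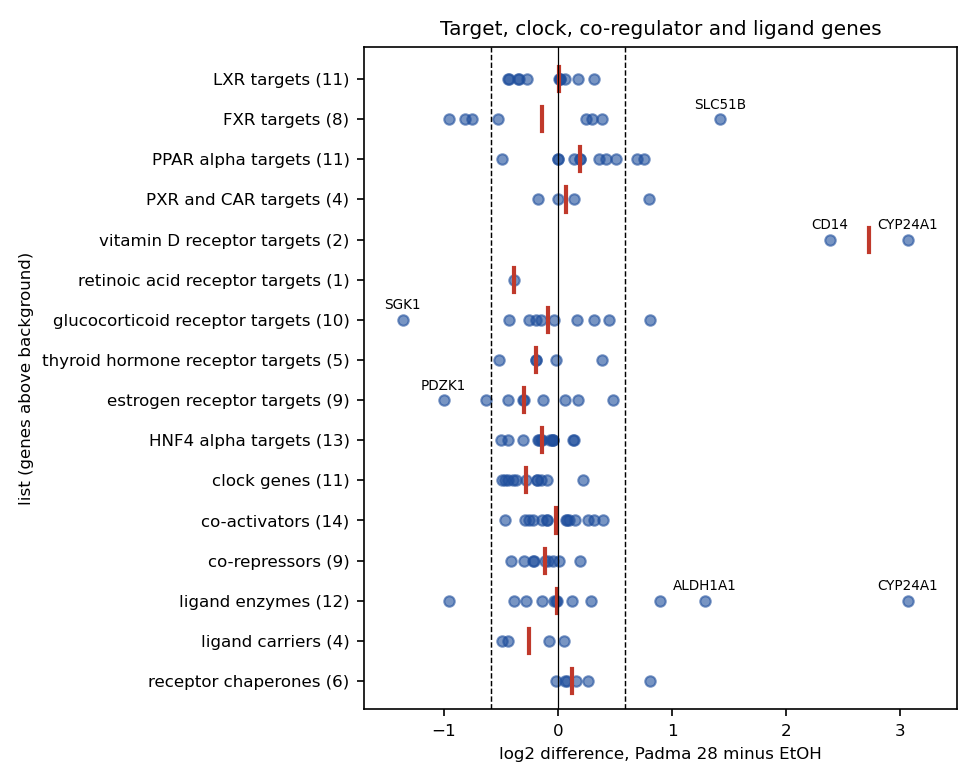
Log2 difference, Padma 28 minus EtOH (horizontal axis), of the genes above background in 16 lists of receptor targets, clock genes, co-regulators and ligand genes (vertical axis, number of genes in brackets), from 1 array per treatment. Each point is a gene, red bars are list medians, dashed lines mark 1.5-fold and genes past 2-fold are named, all by the brightest probe set; the clock genes and HNF4 alpha targets lie mostly to the left of 0 and the PPAR alpha targets mostly to the right.

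Over the 16 lists, which hold 173 genes beside the receptors, 120 were above background. Of these 9 were more than 1.5-fold higher and 6 lower, where 6.49% and 2.90% of all genes above background were. The lower genes were 10 with the median over probe sets and 12 with the probe set of the largest difference, beside 9 and 11 higher, so that the balance of both directions depends on the probe set that stands for a gene. Past 2-fold by the brightest probe set were 4 higher genes, CYP24A1, CD14, SLC51B and ALDH1A1, and 2 lower ones, SGK1 and PDZK1. The lists overlap, since a target can answer to several receptors.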

How the data were processed

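HepG2 cells treated with Padma 28 extract or EtOH were measured on 2 arrays, 1 per treatment, each from the pooled cells of 3 cultures. The deposited values are log2 expression values that the authors made with GCRMA, in which the background is modelled from probe sequence, arrays are quantile normalized and probes are summarized by median polish. Versions in the submitters' processing notes are 2.28.0 for GCRMA and 2.15.1 for R. The unspecific filter of the paper was not applied. The sorted values of both arrays differed by at most 0.099. Medians were 3.13 (EtOH) and 3.08 (Padma 28). Genes were named from the platform annotation, updated through Entrez identifiers to RefSeq symbols (GRCh38.p14). Of 54675 probe sets, 41097 had 1 gene, 1801 several and 11777 none there.

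Log2 differences were taken as the paper's methods do. The most frequent value was found in bins of 0.1. No test was made, and the number of arrays limits the precision. Members and gene lists were chosen with earlier results of these data known. All receptors are named, and of each list the genes past 2-fold and up to 4 with the largest difference. Others are marked as chosen after their values were seen. The steps were tested on simulated data. Alternatives covered the probe set that stands for a gene, the background limit, added values of 16 or 64, centring on the median or along loess (span 0.3), repeated quantile normalization, probe set types and shared probe sets. The tools were pandas 2.3.3, numpy 2.4.6 and matplotlib 3.10.9 under Python 3.11.15, with statsmodels 0.14.6 for loess.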

Additional observations from a re-analysis of the deposited data

How the results depend on the processing

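With 1 array per treatment the limits lie in the probe sets and not in a test, and no paired analysis was possible because each group has 1 sample. Under 12 alternatives the counts of receptors past 1.5-fold (1 higher, 1 lower) and past 2-fold (0 and 0) did not change. The receptors past 1.5-fold, NR1H3 and NR2F1, each have a single probe set, so the choice of probe set could not move them. The receptors above background, 22, were 39 with no filter, 15 without the probe sets marked x or s, which may match several transcripts or genes, and between 21 and 25 under the others. The genes of the 16 lists more than 1.5-fold lower were 10 with the median over probe sets and 12 with the probe set of the largest difference, against 6. These 2 results on lists were recomputed by choice after seeing the data. Of 254 values of single receptors, 236 moved by less than the median gap of 0.14 between probe sets of a gene, and 18 moved by more. Part of the 236 could not move. A changed background limit or no filter alters no difference, and a receptor with a single probe set leaves no choice among probe sets. The opposite sign was seen in 12 values, in receptors such as RXRA (from -0.32 to 0.38), NR2C2 (from -0.20 to 0.24), PPARD (to 0.03) and RARA (to -0.21). Centring on the median or along loess left the median of all genes above background at 0.04 and 0.03.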
